A study of Caenorhabditis elegans with 12 samples.

Results

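The endoplasmic reticulum (ER) unfolded protein response (UPR) was followed in whole C. elegans embryos through 10 listed genes, all of which were found among the 20362 genes of the count files. They are the sensors ire-1, pek-1 and atf-6, the transcription factor xbp-1, the chaperones and co-chaperones hsp-3, hsp-4, dnj-7, crt-1 and enpl-1, and ckb-2. The list was set by gene name, with earlier results of these data known. All 10 had the 20 or more reads in total that were asked of a tested gene. Wild-type embryos (strain N2) were compared with miR-51Fam null embryos (strain MLC1800) at 3 stages (190-cell, bean and 2-fold). Each of the 6 groups had 2 libraries of 50 embryos, and worms were grown at 20 °C. The strain list of the study gives MLC1800 the deletions nDf67 and n4100 on chromosome IV and nDf58 on chromosome X, and an extrachromosomal array, lucEx1057, that holds a fosmid with the miR-54 cluster and the markers ttx-3::gfp and mir-35p::gfp. How embryos without the array were picked was not analysed here, and no further transgene or treatment is given for either strain. The deleted miRNA genes have no values in the count files, so the loss itself could not be checked in these libraries. The labels do not say whether the 2 libraries of a group came from separate cultures, and p-values measure only the spread between these samples.

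The UPR adjusts the folding capacity of the ER to the load of secreted and membrane proteins. Its best conserved arm is IRE-1, a transmembrane kinase and RNase that excises an intron from xbp-1 mRNA in the cytoplasm, so that the active XBP-1 transcription factor is made. PEK-1, the worm PERK, phosphorylates eIF2alpha and lowers translation, and ATF-6 is a membrane-bound transcription factor released by cleavage. The chaperones respond to these arms and also serve ordinary secretion, which is heavy in embryos that build epidermis, basement membrane and cuticle precursors. QuantSeq primes on the poly(A) tail and counts transcripts near their 3′ end, so xbp-1 splicing, kinase activity and cleavage of ATF-6 cannot be read from these values, only the amount of each mRNA.

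Libraries held 887059 to 9558104 reads assigned to genes, except null 190-cell replicate 1, which held 11081 reads and 3231 detected genes against 7287 to 11531 in the other 11. Levels are given as counts per 1000000 assigned reads (CPM) on library sizes scaled by the trimmed mean of M values (TMM). The shallow library took a TMM factor of 2.22, and results that rest on the 190-cell stage are given with that in view. If a molecule was read several times, as estimated in the processing summary, the reads of the shallow library stand for 10132 molecules and those of the others for 108775 to 250705. The sample labels used here separate no batches, so batches could not be compared. In whole embryos, fewer cells that express a gene and less RNA per cell cannot be told apart.

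Null embryos held more enpl-1 mRNA than wild-type embryos at the 2-fold stage and more dnj-7 mRNA in the average over the 3 stages. These were the calls among the 10 genes by stage and in that average, and 0 genes were called at the 190-cell or bean stage. For hsp-3, xbp-1, dnj-7, crt-1 and enpl-1, each null library of the bean and 2-fold stages exceeded each wild-type library of the same stage. Of the 12062 genes tested, 17.1% were so ordered at the bean stage, 1945 genes at the 2-fold stage and 6.39% at both. The 3 sensors, hsp-4 and ckb-2 passed in no genotype comparison, and the reads of hsp-4, pek-1 and ckb-2 stood for at most 8.99 estimated molecules in any library.

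**Figure D1:**
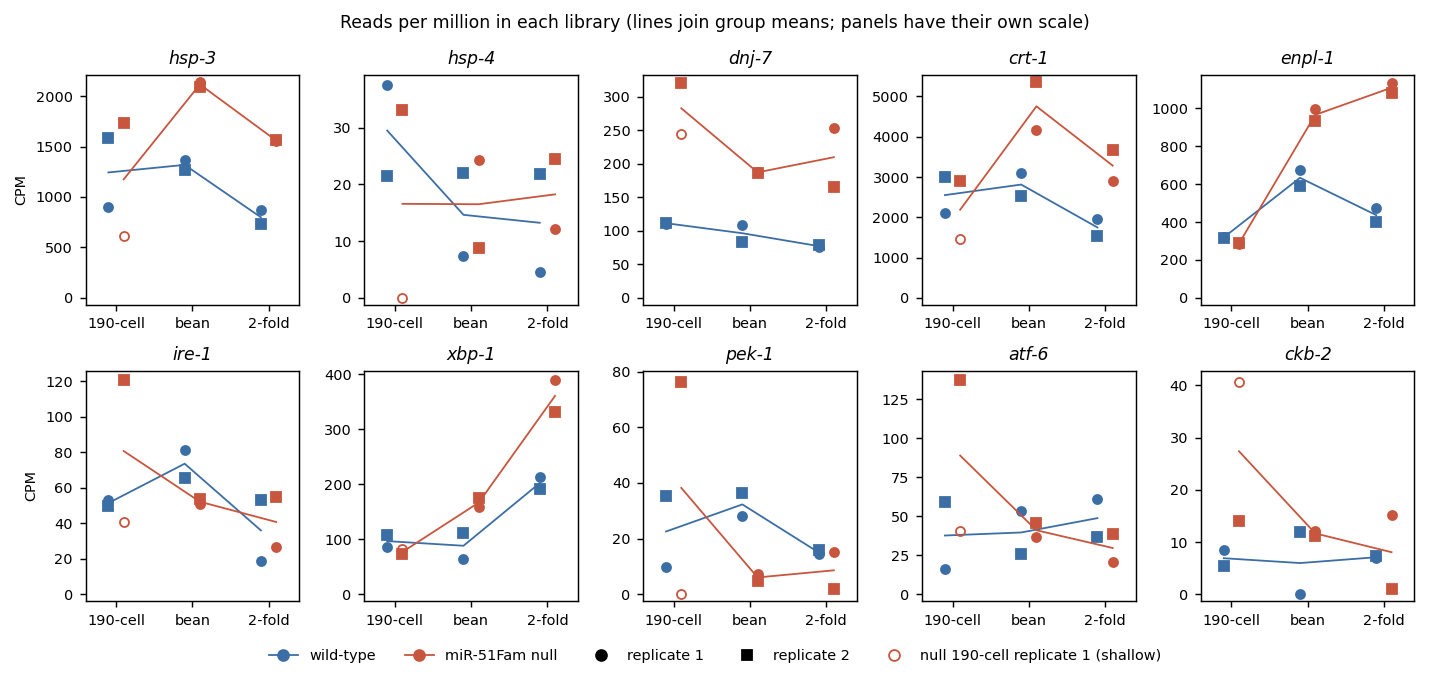
CPM on a linear axis for each of the 10 genes in each library, by stage, with wild-type in blue, miR-51Fam null in red and lines that join the means of 2 libraries. For hsp-3 the null libraries sit at 2137 and 2093 at the bean stage against 1365 and 1271 in wild type, whereas the libraries of the 190-cell stage overlap.

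hsp-3 and hsp-4 encode the worm's BiP proteins, the HSP70-class chaperones of the ER lumen. hsp-3 lies on chromosome X from 6089028 to 6092124 (WBcel235, minus strand). Wild-type libraries held 901 and 1586 CPM of hsp-3 at the 190-cell stage, then 1365 and 1271 (bean) and 868 and 729 (2-fold). In null embryos it was at 611 and 1736, then 2137 and 2093, then 1552 and 1566. The genotypes overlapped at the 190-cell stage and did not overlap later. The log2 fold change (null over wild type) was 0.68 (SE 0.38) at the bean stage with an adjusted p of 0.753, and 0.96 (SE 0.38) at the 2-fold stage with an adjusted p of 0.27 in edgeR's quasi-likelihood test over all genes. Averaged over the 3 stages it was 0.55 (SE 0.22, adjusted p = 0.176). Without the shallow null 190-cell library the averaged value was 0.75 (adjusted p = 0.0170), and without the deeper one it was 0.29 (adjusted p = 0.713). The average also passed on leaving out wild-type 190-cell replicate 2 (adjusted p = 0.0328) or replicate 1 of the null bean group (0.0336), with DESeq2's size factors (0.0292), with DESeq2's own test (0.0232) and with molecule-scaled counts (0.0395). By stage hsp-3 passed with limma voom and library weights at the bean (adjusted p = 0.0140) and 2-fold stages (0.00563) and when the 2-fold libraries were fitted alone (0.0382).

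hsp-4, the other BiP gene (II, 7350112 to 7352645, minus strand), is the gene whose induction is commonly used as a reporter of the UPR in worms. It stood at 37.5 and 21.5 CPM in wild-type 190-cell embryos, at 7.35 and 21.9 in bean and at 4.61 and 21.9 in 2-fold embryos. In null embryos it was at 0 and 33.1, then 24.3 and 8.72, then 12.1 and 24.4. The genotypes overlapped at every stage and the replicates of a group differed by more than the genotypes did. A count of 0 in the shallow library allows up to 134 CPM, taking 3 molecules as the floor, so hsp-4 was not measurable there. Over the 12 libraries its reads stood for 0 to 5.25 estimated molecules, and the averaged log2 fold change was 0.14 (SE 0.83, adjusted p = 0.9999), with a 95% interval of −1.49 to 1.76. That interval holds the values of enpl-1 and dnj-7 given below as well as 0, so a change of hsp-4 of their size was not detectable at this depth.

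Because both BiP genes are read in the same library, their ratio does not depend on scaling. hsp-4 took 3.995% of the reads of the pair in wild-type 190-cell replicate 1 (exact 95% binomial interval 3.44% to 4.61%) and 1.34% in replicate 2 (0.937% to 1.85%). Across all wild-type libraries the share lay between 0.528% and 3.995%, and in the 5 null libraries with reads of hsp-4 it lay between 0.415% and 1.87%. The ranges overlap. The shallow library had 0 of 15 reads, an interval up to 21.8%. These intervals cover counting error only and are too narrow where a molecule was read more than once. hsp-3 and hsp-4 are paralogs, and reads that map to both are among the 39.3% to 63.5% of reads that had more than 1 mapping place and were not counted.

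enpl-1 (IV, 11119298 to 11123155, plus strand) encodes endoplasmin, the ER form of HSP90 known as GRP94. Wild-type embryos held 324 and 314 CPM at the 190-cell stage, followed by 675 and 593 in bean and 474 and 399 in 2-fold embryos. Null embryos held 285 and 288, then 999 and 933, then 1136 and 1082. Replicates of enpl-1 lay close together in every group, and the null libraries were all above the wild-type ones at the bean and 2-fold stages. At the 2-fold stage enpl-1 was 2.54-fold higher in null embryos (log2 fold change 1.34, SE 0.35, edgeR adjusted p = 0.0390). The call was lost when any 1 of the 4 libraries of that stage was left out: the adjusted p was 0.149 without wild-type replicate 1, 0.460 without wild-type replicate 2, 0.0733 without null replicate 1 and 0.152 without null replicate 2, with log2 fold changes of 1.09 to 1.47. At the bean stage the log2 fold change was 0.61 (SE 0.35, adjusted p = 0.758), and the average over stages was 0.60 (SE 0.21, adjusted p = 0.103). The average passed with DESeq2's size factors (adjusted p = 0.0328), with DESeq2's test (0.0277) and without the shallow library (0.0430). The gene overlaps spo-11 on the opposite strand. The strand setting of the counting is not given in the sources used here, so how reads in the overlap were assigned is not known. Over all genes 0.0472% to 0.0882% of the reads of a library were ambiguous and not counted. enpl-1 lies 91.6 kb from mir-53, a family gene on the same chromosome.

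dnj-7 (X, 7194564 to 7198291, plus strand) encodes a J-domain co-chaperone of the ER, the worm relative of mammalian DNAJC3. Its wild-type values were 110 and 112 CPM in 190-cell, 109 and 83.7 in bean and 75.5 and 78.9 in 2-fold embryos. The null values were 245 and 321, then 188 and 187, then 254 and 166. Every null library of dnj-7 stood above every wild-type library, across stages as well as within them. The log2 fold change was 1.40 (SE 0.50, adjusted p = 0.421) in 190-cell, 0.96 (SE 0.47, adjusted p = 0.693) in bean and 1.44 (SE 0.48, adjusted p = 0.135) in 2-fold embryos. None of the 3 passed alone in edgeR, and the 2-fold value passed in DESeq2's test (adjusted p = 0.0406). Averaged over stages dnj-7 was 2.41-fold higher in null embryos (log2 fold change 1.27, SE 0.28, edgeR adjusted p = 0.00658). The call held when each of the 12 libraries was left out in turn, with adjusted p of 0.0014 to 0.0381, and it was lost with limma voom and library weights (adjusted p = 0.0962). In the shallow library dnj-7 rested on 6 reads.

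crt-1 (V, 6098992 to 6100542, minus strand) encodes calreticulin, a calcium-binding chaperone of the ER lumen that assists glycoprotein folding. Along the 3 stages, wild-type embryos held 2106 and 2996, then 3100 and 2526, then 1956 and 1540 CPM. Null embryos held 1467 and 2910, then 4159 and 5350, then 2893 and 3673. As with hsp-3, the genotypes overlapped at the 190-cell stage and were apart later. The log2 fold change was 0.76 (SE 0.34, adjusted p = 0.625) at the bean stage and 0.91 (SE 0.34, adjusted p = 0.212) at the 2-fold stage. The average was 0.49 (SE 0.19, adjusted p = 0.165). At the 2-fold stage crt-1 passed with DESeq2's size factors (adjusted p = 0.0469), with DESeq2's own test (0.0389), with limma voom and library weights (0.00156) and when only the libraries of that stage were fitted (0.0460), and at the bean stage it passed with limma voom (0.000733). Averaged over stages it passed without each of 3 null libraries in turn, at an adjusted p of 0.0268 for 190-cell replicate 1, 0.0120 for bean replicate 1 and 0.0376 for 2-fold replicate 1. It also passed there with DESeq2's size factors (0.0220) and DESeq2's test (0.0213), and without null 190-cell replicate 2 the average was 0.37 (adjusted p = 0.436). The gene overlaps smut-1 on the opposite strand.

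Of the IRE-1 arm, ire-1 (II, 8112243 to 8124910, minus strand, overlapping unc-105 on the opposite strand) was at 53.3 and 49.5 CPM in wild-type 190-cell embryos, then at 81.5 and 65.8 (bean) and 18.6 and 53.4 (2-fold). In null embryos ire-1 was at 40.8 and 121, then 50.7 and 53.7, then 26.8 and 54.7. Both null bean libraries were below both wild-type ones, and the genotypes overlapped at the other stages. The averaged log2 fold change was 0.21 (SE 0.43, adjusted p = 0.9999), with a 95% interval of −0.64 to 1.06.

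xbp-1 (III, 4193809 to 4195358, plus strand), the substrate of IRE-1, stood at 85.9 and 107 CPM in wild-type 190-cell embryos, 64.3 and 112 in bean embryos and 214 and 191 in 2-fold embryos. In null embryos it was at 81.5 (2 reads of the shallow library) and 72.5, then 159 and 174, then 390 and 331. The null libraries of xbp-1 lay above the wild-type ones at the bean and 2-fold stages, and the highest level of each genotype was at the 2-fold stage. The log2 fold change was 0.92 (SE 0.47, adjusted p = 0.723) at the bean stage and 0.83 (SE 0.47, adjusted p = 0.565) at the 2-fold stage, and the average of 0.46 (SE 0.28) had an adjusted p of 0.495. The counts do not separate spliced from unspliced xbp-1 mRNA.

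pek-1 (X, 11410176 to 11414887, minus strand) was at 9.88 and 35.2 CPM in wild-type 190-cell embryos, 28.2 and 36.4 in bean embryos and 14.3 and 15.8 in 2-fold embryos. In null embryos it was at 0 and 76.4, then 7.39 and 4.70, then 15.2 and 2.01. Both null bean libraries of pek-1 were below the wild-type ones, with 14 and 21 reads against 46 and 73. Those null reads stood for 1.19 and 0.747 estimated molecules, and the log2 fold change of −2.42 (SE 1.42) had an adjusted p of 0.764. The average over stages was −0.69 (SE 0.79, adjusted p = 0.928), and it lay between −4.12 (without null 190-cell replicate 2) and −0.31 (without wild-type 190-cell replicate 2) when 1 library was left out.

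atf-6 (X, 12480948 to 12484904, plus strand) was at 16.3 and 59.1, 53.3 and 25.9, and 61.2 and 36.4 CPM in the successive wild-type stages. In null embryos atf-6 was at 40.8 and 137 CPM, then 36.4 and 45.6, then 20.5 and 38.8. The genotypes overlapped at every stage. Its averaged log2 fold change was 0.28 (SE 0.48, adjusted p = 0.9999).

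ckb-2 (III, 4367949 to 4370160, plus strand) encodes a choline kinase, the first enzyme of phosphatidylcholine synthesis from choline, and shares its locus with the non-coding gene srpr-1.2. It was at 8.44 and 5.37 CPM in wild-type 190-cell embryos, 0 and 11.96 in bean embryos and 6.91 and 7.28 in 2-fold embryos. Null embryos had 40.8 and 14.04, then 12.2 and 11.2, then 15.2 and 0.939. Both null libraries were above both wild-type ones at the 190-cell stage, but the value of 40.8 CPM was 1 read of the shallow library. No library held more than 2.85 estimated molecules of ckb-2, and the averaged log2 fold change was 0.94 (SE 1.25, adjusted p = 0.9999). That value was 0.06 without null 2-fold replicate 1 and 3.39 without wild-type bean replicate 2. Of the choline kinase genes other than ckb-2, 4 of 5 listed could be tested and 0 passed in any genotype comparison.

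Counted over the 10 genes, edgeR called 0 at the 190-cell stage, where 0.0663% of the 12062 genes tested were called higher, and 0 at the bean stage, where 0.0497% were. The unadjusted p was under 0.05 for 1 gene at each of these stages, dnj-7 at the former and crt-1 at the latter, where 0.962% and 3.71% of all genes were higher at that p. At the 2-fold stage 1 gene, enpl-1, was called higher against 0.390% of all genes, and in the average over stages 1 gene, dnj-7, against 0.929%. At an unadjusted p under 0.05, 4 of the 10 were higher at the 2-fold stage and 4 in the average, against 2.85% and 3.72% of all genes, and none of the 10 was called lower in these 4 comparisons, where 0.149%, 0.0166%, 1.77% and 3.59% of all genes were. DESeq2 called 0, 0, 3 (dnj-7, crt-1 and enpl-1) and 4 (these and hsp-3) of the 10 in the same order of comparisons. The median log2 fold change of the 10 genes was 0.46, 0.65 and 0.67 along the 3 stages and 0.48 in the average. Over all genes tested the medians were −0.20, 0, −0.14 and −0.31. Since the 10 genes were listed with earlier results of these data known, counts over them describe the list and do not test it.

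Both null libraries exceeded both wild-type libraries for 2 of the 10 genes (dnj-7 and ckb-2) at the 190-cell stage and for 5 (hsp-3, xbp-1, dnj-7, crt-1 and enpl-1) at the bean stage, where 2.68% and 17.1% of all genes did. The same 5 genes did so at the 2-fold stage, as did 1945 of the 12062 genes, and 6.39% of all genes behaved so at both of the later stages. The reverse order held for 2 genes at the 190-cell stage (xbp-1 and enpl-1), for 2 at the bean stage (ire-1 and pek-1) and for 0 at the 2-fold stage, against 25.0%, 16.7% and 25.9% of all genes. For xbp-1 the shallow library held 2 reads, under its floor of 134 CPM, so that order at the 190-cell stage is uncertain. When the average was taken over the bean and 2-fold stages only, a choice made after the shallow library had been seen, edgeR called dnj-7, crt-1 and enpl-1 higher, 3 of the 10 against 1.02% of all genes. Their adjusted p-values were then 0.0424, 0.0471 and 0.0225, and that of hsp-3 was 0.0956.

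**Figure D2:**
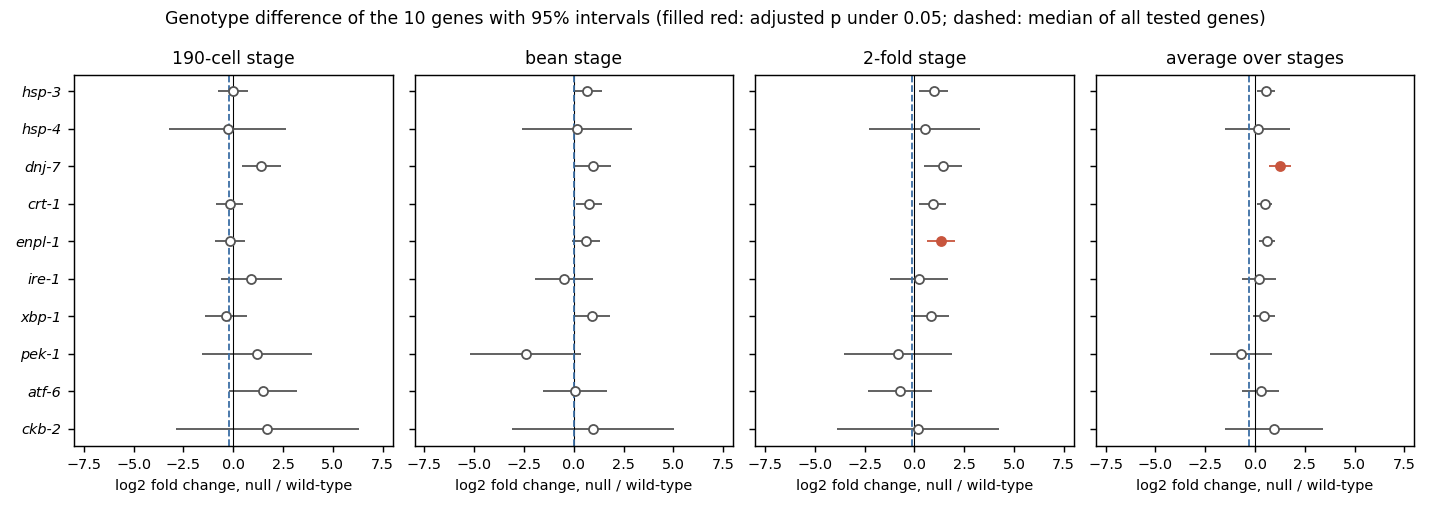
Log2 fold change of null over wild-type embryos for the 10 genes at each stage and averaged over the stages, with 95% intervals from the standard errors, filled red where the adjusted p was under 0.05 and with the median of all tested genes as a dashed line. The filled points are enpl-1 at the 2-fold stage (1.34) and dnj-7 in the average (1.27), and the widest intervals belong to ckb-2, hsp-4 and pek-1.

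Whether the genotype difference changed with the stage was tested directly. None of the 10 genes passed in any of the 3 comparisons between stages, for which 0.0912% (bean against 190-cell), 0.315% (2-fold against bean) and 0.605% (2-fold against 190-cell) of all genes passed in either direction, and DESeq2 called 0 as well. The unadjusted p was under 0.05 for 0, 0 and 2 of the genes, against 5.86%, 6.42% and 7.33% of all genes. Those were enpl-1, whose log2 fold change was higher by 1.498 (SE 0.52, adjusted p = 0.322) at the 2-fold than at the 190-cell stage, and crt-1, higher by 1.09 (SE 0.48, adjusted p = 0.594). For dnj-7 the same difference was 0.04, with a 95% interval of −1.29 to 1.38, so the data do not show whether its genotype difference varied with the stage.

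The wild-type course showed no call among the 10 genes in edgeR. From the 190-cell to the bean stage 1 gene had an unadjusted p under 0.05, enpl-1, with a log2 change of 0.99 (SE 0.35, adjusted p = 0.130). From the bean to the 2-fold stage xbp-1 alone did so, with a log2 change of 1.20 (SE 0.47, adjusted p = 0.185). DESeq2 called enpl-1 in the first and xbp-1 in the second comparison. Over all genes, 5.02% and 4.35% passed in edgeR, and 13.1% and 15.2% had an unadjusted p under 0.05. For hsp-3 and crt-1 the wild-type log2 change from the bean to the 2-fold stage was −0.72 (SE 0.38, adjusted p = 0.382) and −0.69 (SE 0.33, adjusted p = 0.33), and for enpl-1 it was −0.54 (SE 0.35, adjusted p = 0.502).

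In null embryos enpl-1 rose from the 190-cell to the bean stage by a log2 change of 1.75 (SE 0.39, adjusted p = 0.00453), where 4.63% of all genes rose. It passed in 11 of the 12 fits that each left out 1 library, the exception being null 190-cell replicate 2 (adjusted p = 0.308), without which the stage is represented by the 7 enpl-1 reads of the shallow library. With limma voom and library weights its adjusted p was 0.280. The log2 change of crt-1 over the same interval was 1.08 (SE 0.34, adjusted p = 0.0629), and that of xbp-1, with 2 reads in the shallow library, was 1.17 (SE 0.55, adjusted p = 0.305). From the bean to the 2-fold stage edgeR called 0 of the 10, with an unadjusted p under 0.05 for xbp-1 alone (log2 change 1.11, SE 0.47, adjusted p = 0.145), and DESeq2 called xbp-1, whereas 8.91% of all genes passed in edgeR and 22.5% had an unadjusted p under 0.05. These comparisons share libraries with those of the genotypes.

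Genes around the 10 were examined as lists of names. Among 14 other ER chaperones and folding enzymes 0 were called at the 190-cell and bean stages, and 1 at the 2-fold stage and in the average, against 0.0663%, 0.0497%, 0.390% and 0.929% of all genes called higher. The gene called was in both cases pdi-2, a protein disulfide isomerase that is also the beta subunit of prolyl 4-hydroxylase. Wild-type pdi-2 was at 1876 and 3519 CPM in 190-cell, 3907 and 4245 in bean and 2421 and 1822 in 2-fold embryos. In null embryos pdi-2 was at 1426 and 3653, then 6976 and 7275, then 5921 and 5760. The pattern is that of hsp-3 and crt-1, overlap at the 190-cell stage and separation later. Its log2 fold change was 1.46 (SE 0.36, adjusted p = 0.0255) at the 2-fold stage and 0.74 (adjusted p = 0.0344) on average. The 2-fold call was lost without null 2-fold replicate 2 (adjusted p = 0.131) or wild-type 2-fold replicate 2 (0.0651), and the averaged call without null 190-cell replicate 2 (0.178) or null 2-fold replicate 2 (0.08002). Both calls were lost with a filter of 10 CPM in 2 libraries (adjusted p = 0.0625 and 0.0579), and the averaged call with limma voom (0.0593). Over the bean and 2-fold stages only, pdi-2 was again the 1 call of the list (log2 fold change 1.13, adjusted p = 0.00915). The median log2 fold change of the 14 was 0.44 at the bean stage, with 11 above 0, and 0.26 at the 2-fold stage, with 9 above 0. C14B9.2, a gene of the protein disulfide isomerase family, had a log2 fold change of 1.52 at the 2-fold stage with an adjusted p of 0.0753.

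The remaining ER lists had no call by genotype at any stage or in the average over the 3 stages. They were 13 genes of ER-associated degradation, with medians of 0.15 at the bean and 0.55 at the 2-fold stage, 14 of 15 listed genes of translocation into the ER (0.21 and 0.03), 5 oligosaccharyl transferase subunits (0.00 and −0.28) and 6 genes of xbp-1 ligation and the eIF2alpha arm (0.52 and 0.61). In the last list, eif-2alpha, the substrate of PEK-1, was at 118 and 170 CPM in wild-type and 405 and 403 in null 2-fold embryos, with a log2 fold change of 1.498 and an adjusted p of 0.101. atf-4, the transcription factor translated when eIF2alpha is phosphorylated, was at 134 and 115 CPM in wild-type and 177 and 223 in null embryos of that stage. In the average over the bean and 2-fold stages only, edgeR called eif-2alpha (log2 fold change 1.23, adjusted p = 0.0319) and, of the degradation genes, sel-11, an ER ubiquitin ligase (1.48, adjusted p = 0.0402), which is 1 gene of each list against 1.02% of all genes. Of the abu genes, which are activated when the UPR is blocked, 3 of the 14 found had enough reads and 0 were called.

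**Figure D3:**
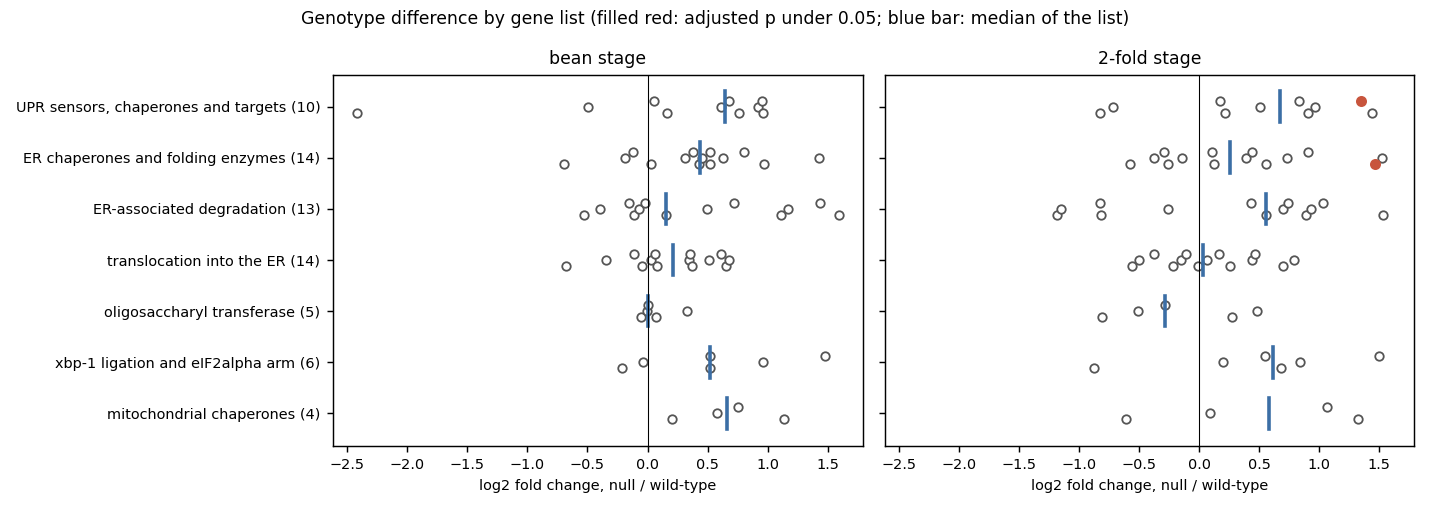
Fitted log2 fold change of null over wild-type embryos at the bean and 2-fold stages for each tested gene of 7 lists, 1 point a gene, filled red where the adjusted p was under 0.05 and with a blue bar at the median of the list. The filled points at the 2-fold stage are enpl-1 (1.34) and pdi-2 (1.46), and no point of the bean stage is filled.

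The same lists were read along development. From the 190-cell to the bean stage 7 of the 14 folding enzymes, 4 of the 14 translocation genes and 2 of the 6 genes of the eIF2alpha list rose in null embryos, where 4.63% of all genes rose. In wild-type embryos over the same interval 1, 0 and 0 of them rose, against 4.18% of all genes, and the difference between the genotypes passed the test for none of these genes. The 4 translocation genes were tram-1, trap-1, trap-4 and sec-61.B, components of or beside the Sec61 channel, and the 2 others were atf-4 (log2 change 3.60, adjusted p = 0.0406) and eif-2alpha (1.90, adjusted p = 0.0232). atf-4 had 81.5 CPM in the shallow library and 4.49 in the other null 190-cell library. Both values lie under the floors of 3 molecules in these libraries, 134 and 25.5 CPM, so the starting level of atf-4 was not measurable. The starting level of every gene counted here includes the shallow library. The 14 folding enzymes summed to 3097 CPM there and 7533 CPM in the other null 190-cell library, then to 13265 and 14486 CPM in null bean embryos. The 14 translocation genes summed to 2486 and 4872, then to 9139 and 9850 CPM. With limma voom and library weights, 1 of the 12062 genes tested passed in this null comparison.

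Chaperones outside the ER were listed for comparison. Of the 4 mitochondrial chaperones tested 0 were called at any stage or in the average over the 3 stages, with medians of 0.66 at the bean and 0.58 at the 2-fold stage, close to those of the 10 UPR genes. hsp-6, the mitochondrial HSP70, was at 265 and 227 CPM in wild-type and 623 and 606 in null 2-fold embryos (log2 fold change 1.32, adjusted p = 0.148), and it was called in the average over the bean and 2-fold stages only (1.23, adjusted p = 0.0232). Like the ER genes above, hsp-6 rose in null embryos from the 190-cell to the bean stage (log2 change 2.165, edgeR adjusted p = 0.00780). It was 1 of the 4 mitochondrial chaperones, against 4.63% of all genes, and the starting level includes the shallow library. Of 10 cytosolic heat shock genes found 7 were tested and 1, F44E5.4, an HSP70-family gene, was called in the average (edgeR adjusted p = 0.0144). In that average 0.929% of all genes were called higher. F44E5.4 met the 20 reads asked of a tested gene through null libraries alone, so its test and the call rest on the same reads. It had 0 reads in all 6 wild-type libraries and 0 and 3.37 CPM, 34.9 and 0 CPM, and 22.8 and 36.1 CPM in null embryos of the 3 stages. No fold is given against libraries at 0, and reads that the gene shares with its near-identical neighbour F44E5.5 are uncertain. That call was lost when wild-type bean replicate 2 (adjusted p = 0.0538), wild-type 2-fold replicate 1 (0.0576), null 190-cell replicate 2 (0.9999) or null bean replicate 1 (0.9999) was left out.

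Some markers of stage and of other cells also differed between the genotypes. The summed gut markers overlapped at every stage and the summed neuron markers at the 190-cell and bean stages. Muscle and epidermis genes that come on late in embryogenesis (unc-54, myo-3, unc-15, mlc-3, noah-1 and noah-2, 6 of 6 found) summed to 257 to 260 CPM in wild-type 190-cell, 1550 to 1809 in bean and 3651 to 5173 in 2-fold embryos. In null embryos their sums were 156 to 244, then 2732 to 2922, then 4998 to 5266, with 3 of the 6 at 0 in both null 190-cell libraries. The bean-stage sums thus did not overlap between the genotypes. The sum of the 8 early embryo markers was lower in null embryos at each stage. Of the 6 that could be tested, 1 was fitted above 0 at the bean stage and 1 in the average. At the 190-cell stage the 8 markers summed to 1692 and 629 CPM in wild-type and to 122 (shallow library) and 195 CPM in null embryos. The sums were 969 and 1314 against 551 and 22.1 CPM in bean embryos. In 2-fold embryos they were 521 and 1595 against 63.0 and 70.4 CPM, with 2 and 4 of the markers at 0 in both libraries of the group. Neuron markers (5 of 5 found) summed to 503 to 524, 376 to 445 and 482 to 515 CPM over the wild-type stages and to 122 to 531, 426 to 447 and 430 to 461 CPM over the null stages. Gut markers (5 of 5) summed to 217 to 257, 159 to 164 and 425 to 641 CPM in wild-type and to 163 to 285, 128 to 203 and 389 to 572 CPM in null embryos. In both null 190-cell libraries rab-3, ric-4 and egl-21 of the neuron list and ges-1, act-5 and ifb-2 of the gut list were at 0. Of the 5 neuron markers, 2 were also at 0 in both wild-type 190-cell libraries. In the shallow library a count of 0 allows up to 134 CPM, so a 0 of any marker there, act-5 included, does not show its absence. act-5, an intestinal actin, was at 32.7 and 7.76 CPM in wild-type 190-cell embryos, where the floors of 3 molecules were 21.4 and 12.95 CPM. In the other null 190-cell library a 0 allows up to 25.5 CPM. Thus 32.7 CPM was the only value of act-5 above its floor at that stage. edgeR called act-5 lower in null embryos at that stage (adjusted p = 0.0324) and in the average over stages (0.0103), where 0.149% and 3.59% of all genes were called lower. The 9 yolk and sperm genes of the adult hermaphrodite summed to 185 to 4278 CPM over the wild-type libraries and 0 to 40.7 CPM over the null libraries. Of the 6 that could be tested, edgeR called 4 lower in null embryos at the 2-fold stage and 6 in the average, against 1.77% and 3.59% of all genes. Their part in the chaperone differences was not tested.

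Among themselves the 10 genes did not move as 1 group. Over the 12 libraries Pearson's r of log2(CPM + 1) was 0.952 between hsp-3 and crt-1 and 0.937 without the shallow library. It was 0.675 between xbp-1 and enpl-1, 0.673 between crt-1 and enpl-1 and 0.589 between hsp-3 and enpl-1. ire-1 and xbp-1 ran against each other, with r of −0.607. dnj-7 had r of 0.388 with hsp-3 and 0.743 once the shallow library was left out. The points share stage, genotype and depth, and these values describe the libraries.

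**Figure D4:**
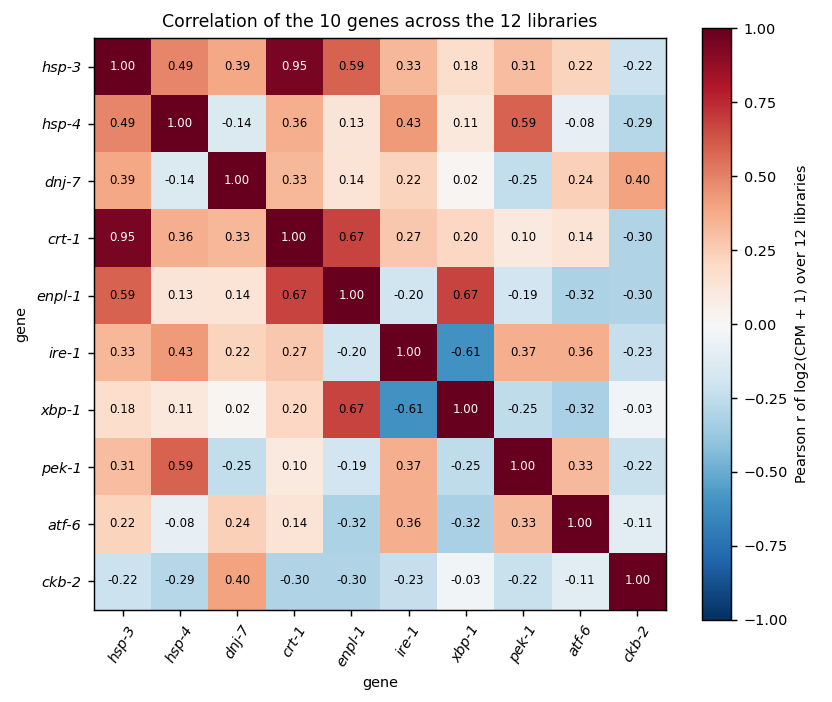
Pearson r of log2(CPM + 1) over the 12 libraries for each pair of the 10 genes, from blue (−1) to red (1). The darkest cell off the diagonal joins hsp-3 and crt-1 (0.952) and the deepest blue joins ire-1 and xbp-1 (−0.607).

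Of 6028 genes with a mean of 20 CPM or more, those closest to hsp-3 were ain-1 (r = 0.957), crt-1 (0.952) and F40H3.6 (0.937). Closest to crt-1 were hsp-3, pdi-2 (0.931) and ain-1 (0.923), and closest to enpl-1 were gpa-9 (0.960), fkb-5 (0.946) and T07A9.12 (0.941). xbp-1 lay nearest to Y57E12AR.1 (0.977), F40A3.1 (0.962) and aco-2 (0.958), and dnj-7 to T13C5.6 (0.882), nhr-122 (0.875) and lin-66 (0.866). For ire-1 the highest r was 0.884 with arle-14, for atf-6 0.785 with T09B4.2, for pek-1 0.925 with eef-1A.1, for hsp-4 0.936 with elpc-4 and for ckb-2 0.895 with lin-56. In the shallow library hsp-4 and pek-1 had 0 reads and ire-1, atf-6 and ckb-2 had 1 read, and the r of these 5 genes rest in part on those values.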

How the data were processed

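Embryos were collected at the 2-cell stage, left to develop and frozen, and total RNA was used for QuantSeq 3′ libraries with unique molecular identifiers (UMIs). The authors extracted UMIs with UMI-tools, trimmed reads, mapped them to WBcel235 with STAR, removed duplicates and counted with HTSeq, and they deposited whole-number counts per gene, not normalised. Tool versions, annotation release and strand setting are not given in the sources used here. Of all reads, 31.8% to 53.7% were assigned to genes, 4.00% to 8.65% fell outside genes, 0.0472% to 0.0882% were ambiguous and 39.3% to 63.5% were not unique, and only assigned reads entered sizes and tests.

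Symbols, positions and overlaps came from the Ensembl annotation of the same build, and 19643 of the 20362 gene IDs had an entry in the symbol table. Genes with 20 or more reads in total were tested (12062). In edgeR 4.0.16 (R 4.3.3) sizes were scaled by TMM, a mean was fitted for each of the 6 groups, and contrasts were tested two-sided by the quasi-likelihood F test with robust dispersions, with Benjamini-Hochberg adjustment over all tested genes and a threshold of 0.05. Standard errors (SE) were derived from the F statistic. Alternatives used DESeq2 1.42.0, limma 3.58.1, other scalings and filters, a replicate block and the omission of each library. The fits and the molecule estimate were also run on data simulated under their own assumptions, which cannot show whether those assumptions hold for these libraries.

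Although removal of UMI duplicates is described, reads per molecule were estimated from the mean reads of genes that had 1 to 3 CPM elsewhere, set against the share of them with no read. This assumes Poisson sampling and gave 1.09 for the shallow library and 3.68 to 56.8 for the remaining 11. All molecule numbers and the floor of 3 molecules rest on it and cover counting error only.

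The 10 genes and all lists were chosen with earlier results of these data known. Named are the 10 genes, up to 4 genes of each list called by genotype (smallest p first), every gene of a count of 5 or fewer, and the 3 genes with the highest r to each of the 10. eif-2alpha, atf-4, hsp-6 and C14B9.2 outside such counts were chosen after their values were seen. No sequences were used here.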

Additional observations from a re-analysis of the deposited data

How the results depend on the processing

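With 2 libraries a group, a few estimated molecules for 3 of the genes and 1 shallow null library, counts of calls moved with the setting. At the 2-fold stage the call count of 1 became 2 with DESeq2 size factors and 3 with DESeq2's test, with limma voom and library weights or with only the groups compared, and 0 to 1 when a library was left out. For the average over stages, 1 call became 0 with voom, 2 with counts scaled to molecules, 4 with DESeq2 size factors or DESeq2's test and 3 over the bean and 2-fold stages only, and 1 to 4 when a library was left out. At the bean stage 0 calls became 2 with voom. In null embryos from the 190-cell to the bean stage, 1 call became 0 with voom and 2 with DESeq2 size factors, molecule-scaled counts, no filter, only the groups compared or the replicate block, and 0 to 2 when a library was left out. In that comparison the second gene was crt-1, except with only the groups compared, where it was pek-1, whose log2 change in the main fit was −3.08. From the bean to the 2-fold stage 0 calls became 1 in null embryos with DESeq2 size factors, DESeq2's test, molecule-scaled counts or only the groups compared and 3 with voom, and in wild-type embryos 1 with the first 3 of these and 4 with voom. The voom calls were hsp-3, crt-1 and xbp-1 in null embryos and these and ire-1 in wild-type embryos. Of them xbp-1 alone rose in the main fit. In wild-type embryos from the 190-cell to the bean stage 0 became 1 with DESeq2 size factors, DESeq2's test, molecule-scaled counts or voom, and 0 to 1 when a library was left out. The count of 1 among the 14 other folding enzymes became 0 to 4 at the 2-fold stage and 0 to 3 in the average under the settings other than leaving out a library. The cause of these moves was not tested.

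Directions were recomputed for the averages of all 10 genes, the stage values of hsp-3, xbp-1, dnj-7, crt-1 and enpl-1, and the other fold changes printed for pek-1 (bean), for the stage courses and for the differences between stages at 2-fold against 190-cell. Among these, the following turned. At the 190-cell stage crt-1 (−0.18) was 0.0499 with DESeq2 size factors, 0.0717 with DESeq2's test, 0.20 with voom, 0.054 with only the groups compared and −0.45 to 0.28 when a library was left out, enpl-1 (−0.15) was 0.0248 with DESeq2 size factors, 0.0316 with only the groups compared and −0.15 to 0.18 when a library was left out, hsp-3 (0.00) was −0.0322 with the replicate block, −0.0866 with TMMwsp scaling and −0.67 to 0.59 when a library was left out, and xbp-1 (−0.38) ranged from −0.38 to 0.10 when a library was left out. Averaged over stages, atf-6 (0.28) was −0.33, ire-1 (0.21) −0.14 over the bean and 2-fold stages only, and hsp-4 (0.14) was −0.00925 with molecule-scaled counts. With a library left out they ranged from −0.10 to 0.67, −0.11 to 0.50 and −2.93 to 0.60. The difference of the dnj-7 fold change between the 2-fold and 190-cell stages (0.04) was −0.0305 with molecule-scaled counts, −0.13 with DESeq2 size factors, −0.12 with DESeq2's test, −0.22 with voom, −0.0186 without a filter and −0.41 to 0.31 when a library was left out.

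Deviations of same-numbered libraries of the 2 genotypes correlated by 0.0305, −0.0280 and 0.0134 at the 3 stages. With 2 libraries a group, 1 of them shallow, these values do not settle whether replicate numbers mark anything shared. Over all genes the replicate block raised the calls from 26 to 166, 8 to 133 and 260 to 522 along the 3 stages. In the average they rose from 545 to 827, and the cause was not tested. With the replicate block the count of calls was 1 at the 2-fold stage and 1 in the average, with enpl-1 and dnj-7 called as before. Scaling by DESeq2's size factors moved the median of all genes at the 190-cell stage from −0.20 to −0.05.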

Other observations

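Among the 14 other ER chaperones and folding enzymes, 7 rose in null embryos from the 190-cell to the bean stage, where 4.63% of all genes rose. Their starting level includes the shallow library. These 7 genes are named here after their values were seen. They were the protein disulfide isomerases pdi-1 (log2 change 1.94, adjusted p = 0.0232), pdi-2 (1.44, 0.0143), pdi-3 (1.76, 0.00543) and C14B9.2 (1.98, 0.0138), the J-domain genes dnj-20 (1.78, 0.0254) and dnj-27 (1.94, 0.0377), and the cyclophilin cyn-5 (1.53, 0.0114). In wild-type embryos C14B9.2 rose over the same interval (1.76, adjusted p = 0.0171). From the bean to the 2-fold stage pdi-1 (−1.61, adjusted p = 0.0240), dnj-27 (−1.69, 0.0324) and cyn-5 (−1.12, 0.0475) fell in null embryos, where 8.91% of all genes passed in either direction. All tests were edgeR's quasi-likelihood test.

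dnj-27 had its highest values in null bean embryos. It was at 40.8 and 129.7 CPM in null 190-cell, 409.8 and 424 in bean and 125 and 134 in 2-fold embryos, and in wild-type embryos at 53.3 and 113, then 124 and 185, then 94.7 and 103. The 2 null bean libraries were above both wild-type ones, and the log2 fold change there was 1.43 with an adjusted p of 0.455.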
